A study of Mus musculus with 2 samples.

Results

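Starburst amacrine cells were followed in dissociated mouse retina at postnatal day 7, in 1 single-cell library labelled control and 1 labelled Mettl14-cKO. A barcode counted as a starburst cell when it held at least 2 of Chat, Slc18a3, Slc5a7, Sox2 and Megf10, at least 1 of them Chat or Slc18a3. It also needed a unique molecular identifier (UMI, 1 counted RNA molecule) of Gad1, Gad2 or Tfap2b, and none of Slc6a9 or Rlbp1. This gave 153 cells of 24841 barcodes that passed the filters, 64 of 11361 control and 89 of 13480 Mettl14-cKO barcodes. Control animals carried either fl/fl or fl/wt alleles of Mettl14, and the labels name no Cre for them. The Mettl14-cKO animals were Mettl14 fl/fl and carried Chx10-Egfp/Cre, a transgene in which the promoter of Chx10 drives a fusion of EGFP and Cre in retinal progenitors. As background, that line is known to act in a mosaic of progenitors, so single starburst cells may have kept the gene. The labels do not give the number of animals or retinas pooled, their sex or a sequencing batch, and these cannot be told apart from genotype. With 1 library per genotype no test was made, and the intervals below are exact 95% intervals for counting error only. Where a count is 0, the limit given is that of 3 counts, which bounds cells with a UMI and not cells that express the gene.

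Starburst amacrine cells are the cholinergic interneurons of the retina, and they also release GABA. They form a pair of mosaics, with OFF cells in the inner nuclear layer and ON cells in the ganglion cell layer, and their radial dendrites make direction-selective ganglion cells selective. In the first postnatal days they also drive the cholinergic waves of spontaneous retinal activity. Chat makes acetylcholine, Slc18a3 (the vesicular transporter VAChT) loads it into vesicles and Slc5a7 takes up choline for new synthesis.

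Chat and Slc18a3 share a locus. On build GRCm38, Chat spans chr14:32408203-32465989 and the single exon of Slc18a3 spans chr14:32462438-32464850, both on the minus strand. Slc18a3 lies in an intron of Chat, between exon 1 and exon 2 of the Chat transcript that runs furthest, so reads from unspliced Chat RNA over that stretch cannot be told apart from Slc18a3. The start regions of both genes are shown because their levels parted between the libraries, as given below. They hold 250 bases before and 50 after each start and are credited to RefSeq, GRCm38.p6, in 5′ to 3′ direction on the minus strand. Capitals mark the motif TAAT, the core that homeodomain factors such as Isl1 read, searched on both strands and appearing as its reverse complement. The Chat region lies at chr14:32465860-32466159 and the Slc18a3 region at chr14:32464801-32465100.
Chat: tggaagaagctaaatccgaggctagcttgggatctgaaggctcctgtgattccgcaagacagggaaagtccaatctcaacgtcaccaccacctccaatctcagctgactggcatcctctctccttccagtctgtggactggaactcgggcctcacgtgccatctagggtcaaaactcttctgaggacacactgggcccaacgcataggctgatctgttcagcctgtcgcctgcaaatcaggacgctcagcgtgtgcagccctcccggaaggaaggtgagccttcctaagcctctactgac
Slc18a3: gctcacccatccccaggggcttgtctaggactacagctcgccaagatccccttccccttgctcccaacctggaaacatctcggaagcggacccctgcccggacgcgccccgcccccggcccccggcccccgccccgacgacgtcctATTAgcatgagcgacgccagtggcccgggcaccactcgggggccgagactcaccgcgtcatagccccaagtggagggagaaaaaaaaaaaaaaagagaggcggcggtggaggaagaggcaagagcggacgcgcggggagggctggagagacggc
The Slc18a3 region holds 1 TAAT core and the Chat region holds 0. Of 32851 RefSeq start regions of the same length, 58.0% hold at least 1, so its presence sets neither gene apart.

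The members carried starburst markers that did not choose them. Isl1, a homeodomain factor of starburst and ON bipolar cells, stood at 1559 UMIs per 1000000 (CPM) in control and 1321 in Mettl14-cKO members, against 94.2 and 40.8 in other GABAergic amacrine cells. Its share of members with a UMI was 96.9% in control and 93.3% in Mettl14-cKO. With each cell thinned to 1500 UMIs it was found in 79.4% and 83.3% of members and in 5.94% and 3.26% of other GABAergic cells, with median depths before thinning of 6985.5 and 4866 UMIs in members and 4916 and 4143.5 in the others. Slc10a4, a vesicle protein of cholinergic and aminergic neurons, stood at 152 and 136 CPM in members against 2.06 and 3.87. The other GABAergic cells, 535 control and 922 Mettl14-cKO barcodes, held Gad1 or Gad2 with Tfap2a or Tfap2b and lacked Chat, Slc18a3, Slc6a9, Rlbp1, Lhx1 and Pou4f2.

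**Figure D1:**
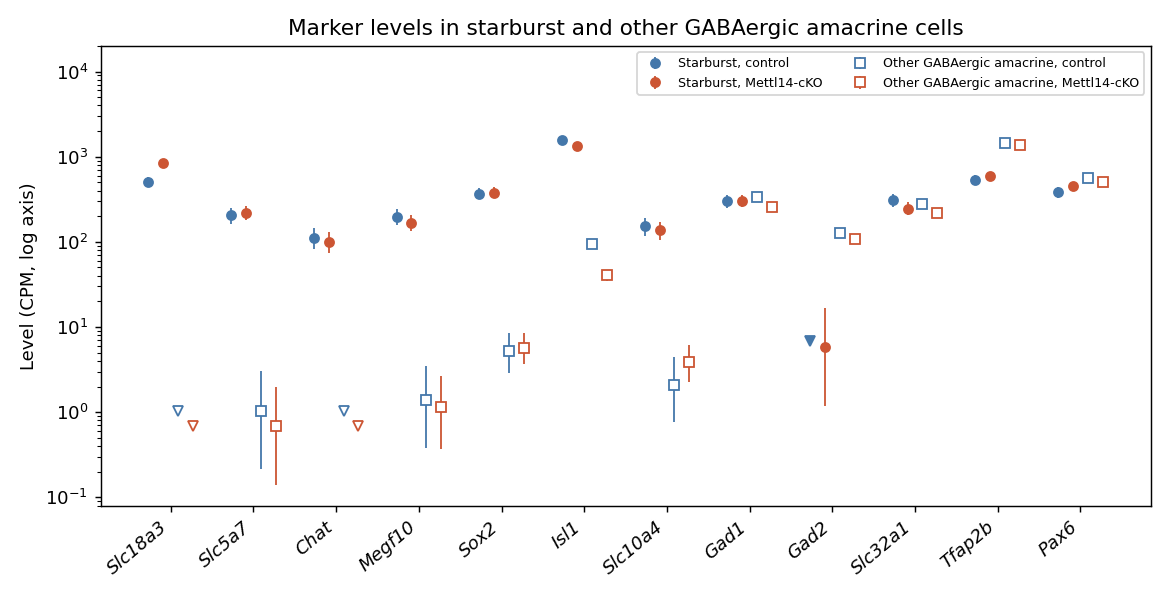
Marker levels in CPM on a log axis, as filled circles for starburst cells and open squares for other GABAergic amacrine cells, control in blue and Mettl14-cKO in red, with 95% counting intervals. Downward triangles mark a gene with 0 UMIs at the level of 3 counts; Isl1 and Slc10a4, which did not choose the members, stand high in starburst cells of both libraries, and Gad2 stands low.

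Of the enzymes that make GABA, members held Gad1 and almost no Gad2. Gad1 stood at 299 CPM in control and 303 in Mettl14-cKO members, beside 334 and 259 in other GABAergic cells, but it helped to choose both classes. Gad2, the other isoform, had a UMI in 0 of 64 control members, where 3 cells would be 4.69%, and in 3 of 89 Mettl14-cKO members. In other GABAergic cells Gad2 was found in 46.9% and 42.7% of cells, and in 19.0% and 16.5% at 1500 UMIs, where members gave 0 of 63 and 2 of 84; those cells had to hold Gad1 or Gad2, which raises both shares. The rule asked for Gad1, Gad2 or Tfap2b, and no member entered by Gad2 alone. Slc32a1, which loads GABA into vesicles, stood at 308 and 245 CPM.

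Most members passed the rule with a margin. All 5 markers were found in 14 control and 12 Mettl14-cKO cells, 4 in 28 and 33, 3 in 10 and 29, and 2 in 12 and 15. At the minimum of 2 markers, 12 of 12 control and 10 of 15 Mettl14-cKO members held Isl1. Just outside, 9 control and 28 Mettl14-cKO barcodes had Chat or Slc18a3 as their 1 marker, and 3 and 7 of them held Isl1. The exclusion of Slc6a9 and Rlbp1 acted unequally: it kept out 20 control and 5 Mettl14-cKO barcodes, 16 and 4 of them by Rlbp1. All 20 of those control barcodes and 4 of the 5 Mettl14-cKO barcodes held Isl1.

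Control members held 441203 UMIs in all and Mettl14-cKO members 521617. The libraries had 57 barcodes in common, and no barcode was a member in both. Rod transcripts were present in members and in other amacrine cells: the 8 rod markers summed to 2650 CPM (2649.57 before rounding) and 3238 CPM, against 2130.3 and 1853 in other GABAergic cells. In 4 control and 2 Mettl14-cKO members they made up over 1% of UMIs, and these are called rod-rich below. The 8 ganglion cell markers summed to 607 CPM in control and 93.9 in Mettl14-cKO members, and 1 control cell carried most of that, with 100 of the 106 Nefl UMIs and 80 of the 86 Sncg UMIs. The 8 Müller glia markers summed to 165 and 240 CPM (239.6 before rounding), with Rlbp1 at 0 by the rule and Apoe at 65.7 and 157 CPM. All 4 microglia markers, all 4 of endothelial cells and pericytes and both of astrocytes were at 0 in control members, and these lists summed to 3.83, 1.92 and 1.92 CPM in Mettl14-cKO members. Mki67, Top2a and Cdk1, which mark cycling progenitors, were at 0 in both.

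Starburst cells took a similar share of both libraries as counted. They made up 0.563% (0.434 to 0.719%) of control and 0.660% (0.531 to 0.812%) of Mettl14-cKO barcodes, a ratio of 1.17 (0.841 to 1.64). Among barcodes with a Gad and a Tfap2 transcript they were 44 of 760 in control, or 5.79%, and 59 of 1190 in Mettl14-cKO, or 4.96%. The ratio moved with the depth and with the exclusion. With every barcode thinned to 1000 UMIs before the rule, 14 control and 35 Mettl14-cKO cells remained, a ratio of 2.11 (1.11 to 4.24). With the barcodes that held Slc6a9 or Rlbp1 kept, an alternative chosen after seeing the data, there were 84 and 94 cells and the ratio was 0.943 (0.695 to 1.28), which turns the direction.

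Starburst cells were next set against the other GABAergic amacrine cells of the same library. Of 9246 genes measured, 318 (3.44%) were higher in starburst cells by 2-fold or more with intervals apart in both libraries, and 371 (4.01%) were lower. These counts leave out the genes of the rule, and they describe cells that were chosen by their markers. Pnoc, the precursor of the opioid-like peptide nociceptin, stood at 1947 CPM in control starburst cells against 2.75 in other GABAergic cells, and at 1424 against 5.47 in Mettl14-cKO, log2 folds of 9.47 and 8.02. Rims1, an organiser of the presynaptic active zone, stood at 4372 against 62.2 CPM and at 3339.6 against 68.4. Gabrd, the delta subunit of extrasynaptic GABA-A receptors, stood at 480.5 against 5.50 CPM and at 401 against 3.42. Megf11, a relative of the mosaic spacing receptor Megf10, stood at 247 against 3.44 CPM and at 272 against 1.14.

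Others among the 20 largest folds covered secreted, matrix and signalling proteins. Igfbp7, which binds insulin-like growth factors, stood at 891 and 836 CPM in starburst cells against 6.53 and 7.06. Calb1, a calcium buffer, stood at 1049 and 629 CPM against 18.6 and 9.57. Sox2ot, the long RNA that overlaps Sox2, stood at 598 and 788 CPM against 2.75 and 7.29, and since Sox2 is a gene of the rule it is not independent of it. Tgfb3, a ligand of the TGF-beta family, stood at 224 and 194 CPM against 1.37 and 1.82. Col25a1, a membrane collagen, stood at 252 and 243 CPM against 5.16 and 3.19. Pde11a, a phosphodiesterase of cyclic nucleotides, stood at 141 and 109 CPM against 0.344 and 0.684. Rprml, Etl4, Galnt15, Moxd1, Csrp3, Cmtm8, Mmp17, Adamts18, Itga4 and Gng7 completed the 20, with log2 folds between 5.38 (Gng7, control) and 8.68 (Rprml, control).

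**Figure D2:**
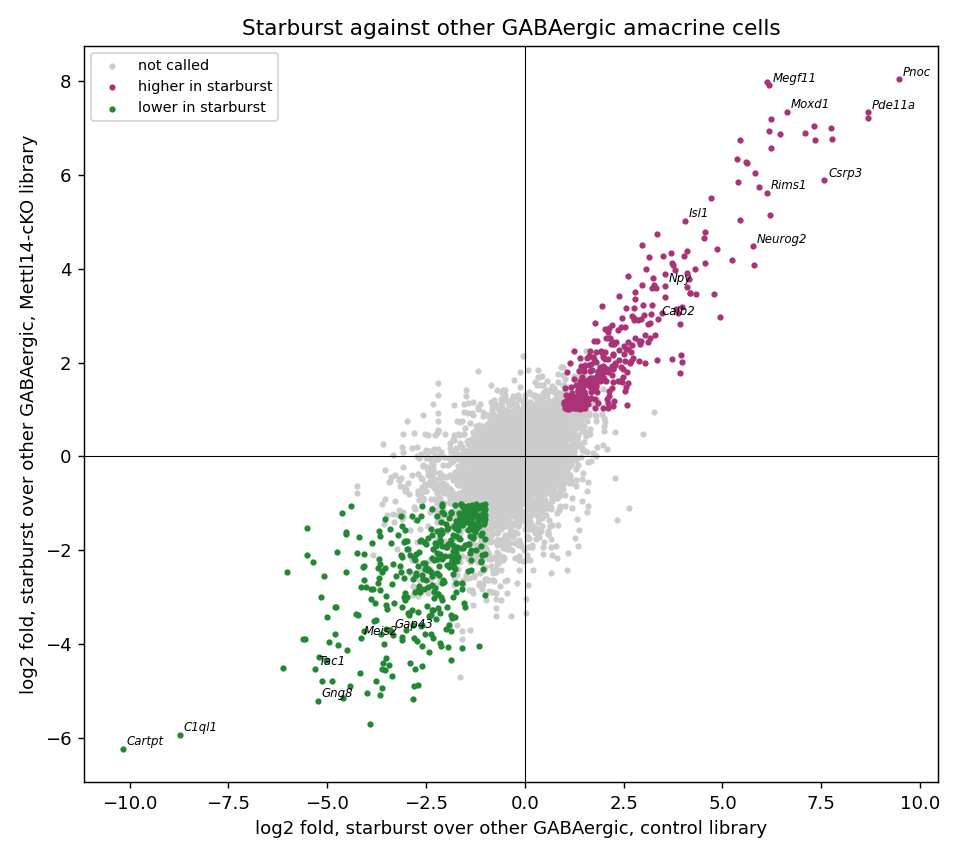
Each point is a gene with at least 30 UMIs over both classes in each library; the horizontal axis gives its log2 fold of starburst over other GABAergic cells in the control library and the vertical axis in the Mettl14-cKO library, with genes of the rule left out and 0 counts set to 3. Called genes lie along the diagonal, from Cartpt and C1ql1 at the lower left to Pnoc at the upper right.

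The 10 smallest folds belonged to genes at or near 0 in control members. Cartpt, a peptide of other amacrine and ganglion cells, had 1 UMI in control members and 0 in Mettl14-cKO members, against 2603 and 429 CPM in other GABAergic cells. Tac1, the substance P precursor, had 0 UMIs in members of both libraries, where 3 counts would be 6.80 and 5.75 CPM, against 270.2 and 132 CPM. C1ql1 and C1ql2, secreted C1q-like synaptic proteins, stood at 2.27 and 0 CPM in control members against 965 and 473 CPM in other GABAergic cells. In Mettl14-cKO members they stood at 11.5 and 24.9 CPM against 697 and 562. Gng8, Ccdc88b, Maf, Pou3f1, Shisa8 and Tenm1 completed the 10 smallest, with log2 folds between -5.23 (Gng8, control) and -4.26 (Tenm1, Mettl14-cKO).

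The identity factors, adhesion molecules and channels divided in both directions, where 3.44% of all genes measured were higher and 4.01% lower. Of 17 transcription factors measured, Isl1, Barhl2 and Nhlh2 were higher in starburst cells and Meis2, Bhlhe22, Tfap2c, Lhx9 and Eomes lower. Meis2, a factor of many other GABAergic amacrine types, stood at 61.2 and 99.7 CPM in members against 1091 and 1454. Of 27 genes of mosaic spacing, self-avoidance and lamination, 6 were higher, namely Megf11, Plxna2, Tenm2, Tenm3, Cntn5 and Robo2, and 7 were lower, namely Dscam, Sdk1, Tenm1, Tenm4, Plxna4, Unc5d and Robo1. Plxna2, a semaphorin receptor known to act in starburst stratification, stood at 340.0 and 335.5 CPM against 74.6 and 64.0. Dscam, which keeps dendrites of many amacrine types apart, had 0 UMIs in control members and stood at 5.75 CPM in Mettl14-cKO members, against 68.7 and 80.4.

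Of 33 receptors and channels, 9 were higher in starburst cells and 6 lower, against 3.44% and 4.01% of all genes measured. The 9 were the nicotinic subunit Chrna4, the inhibitory glutamate receptor Grm2, Gabra2 and Gabrd, the NMDA receptor subunit Grin2b, the fast potassium channel Kcnc1 (Kv3.1) and the calcium channel subunits Cacna1a, Cacna1b and Cacna2d1. Grm2 stood at 99.7 and 90.1 CPM against 19.2 and 8.43, and Kcnc1 at 295 and 247 against 70.1 and 70.2. Cacna1a, the pore subunit of P/Q-type calcium channels, stood at 261 and 226 CPM against 43.0 and 41.7. Lower ones included Gabra3, Glra2, Grik1, Grin2a and Scn1a. Neuropeptide Y (Npy) stood at 9694 and 5964 CPM against 833 and 482.

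Some genes of young neurons were lower in starburst cells and 1 was higher. Of 18 axon and cytoskeleton genes 6 were lower and 0 higher, against 4.01% and 3.44% of all genes measured: Map1b, Tubb3, Stmn1, Gap43, Dcx and Tubb2b. Gap43, a protein of growing axons, stood at 54.4 and 42.2 CPM in members against 568 and 556. Of 12 neurogenic and immature genes measured, Sox11, Elavl2 and Elavl4 were lower. Neurog2, a proneural factor of progenitors, was higher: it stood at 113 and 142 CPM in members against 2.06 and 6.38, with UMIs in 30 of 64 and 31 of 89 members. The cycling markers named above were at 0 in the same cells.

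Between the libraries, Mettl14 itself was too sparse in so few cells to be resolved. Mettl14, on chr3:123368297-123386108, minus strand, is the partner of Mettl3 in the complex that methylates adenosines of messenger RNA (m6A). Members held 7 UMIs in control (15.9 CPM) and 3 in Mettl14-cKO (5.75 CPM), a ratio of 0.363 with an interval of 0.0605 to 1.59. In other GABAergic cells it stood at 18.6 and 11.2 CPM. The labels do not say which exons the floxed allele removes, so these 3′ counts may include transcripts of a deleted allele. Mettl3 had 18 and 8 UMIs in members, below the 30 asked for over both libraries.

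Of 5265 genes with at least 30 UMIs over both libraries, 179 (3.4%) were higher in Mettl14-cKO members by 1.5-fold or more with intervals apart, and 125 (2.37%) were lower. The median log2 ratio, Mettl14-cKO over control throughout, was 0.04. The 15 highest among genes with at least 100 UMIs mixed neuronal, glial and rod genes. Fabp7, a fatty acid binding protein of Müller glia and progenitors, stood at 45.3 CPM in control members and 383 in Mettl14-cKO members, log2 3.08. Its 200 Mettl14-cKO UMIs lay in 20 of 89 cells, 64 of them in 1 cell, and its log2 ratio was 3.04 without the cell of each library that held most. The 8 Müller glia markers summed to 165 and 240 CPM in the same members, and Apoe held 65.7 and 157 CPM of this. Vim (31.7 and 13.4 CPM), Sox9, Slc1a3 and Aqp4 stood lower in Mettl14-cKO members, and Glul (24.9 and 32.6 CPM) and Dkk3 higher. The part of these markers in the Fabp7 ratio was not tested. Islr2, a membrane protein of outgrowing axons, stood at 335 and 713 CPM, log2 1.09, and lay in 54 of 64 and 81 of 89 cells. Crtac1, a secreted matrix protein, stood at 156 and 389 CPM, log2 1.32, and lay in 36 of 64 and 77 of 89 cells. The UMIs of Islr2 and Crtac1 thus lay in most members of both libraries and not in a few. Malat1, a nuclear RNA named after its value was seen, held the most UMIs of the called genes, at 28953 and 49070.5 CPM, log2 0.76.

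**Figure D3:**
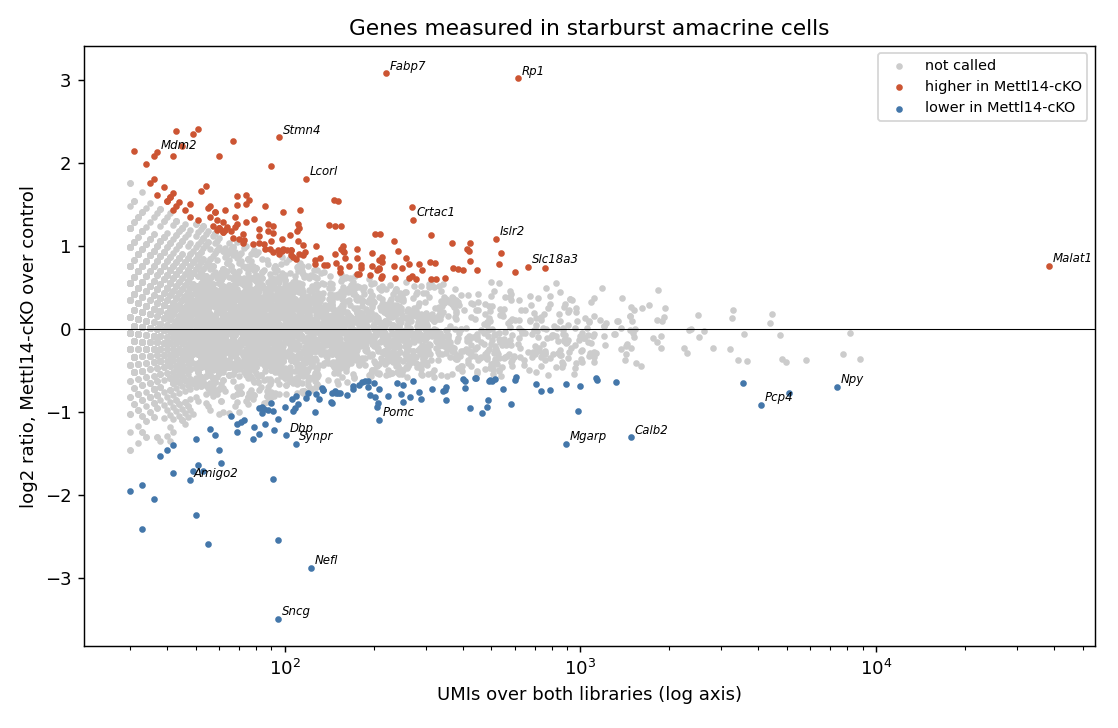
Each point is a gene measured in starburst cells, with its UMIs over both libraries on a log axis and its log2 ratio of Mettl14-cKO over control on the vertical axis; red and blue points were called higher and lower. Fabp7 and Rp1 stand above 3, and Nefl and Sncg, which rest on 1 control cell, stand below -2.8.

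Some of the highest ratios followed a few cells. Rp1, a protein of photoreceptor cilia, stood at 131 and 1066 CPM, log2 3.02, and 299 of its 556 Mettl14-cKO UMIs came from 1 cell. The 8 rod markers summed to 2650 and 3238 CPM in the same members. Without the rod-rich members Rp1 had 27 and 146 UMIs and a log2 ratio of 2.28, and without the deepest 5% of cells the ratio was 1.06. Rpgrip1, another cilium protein, had 66 of its 117 Mettl14-cKO UMIs in 1 cell, and without rod-rich members its call was lost at 0.93. Without the deepest 5% of cells its log2 ratio was 0.13. The rod factor Nrl stood at 83.9 and 199 CPM, log2 1.25, and lost its call in the same reading (0.13). Apoe, a lipoprotein of Müller glia, stood at 65.7 and 157 CPM. Its log2 ratio of 1.26 turned to -0.14 without barcodes that Scrublet marked as doublets and to -0.19 with Slc6a9 and Rlbp1 barcodes kept. The other 8 were Lcorl (1.81), Prr7 (1.24), Pop7 (1.23), Utp3 (1.21), Agpat3 (1.15), Ckap4 (1.14), Mrpl43 (1.13) and Rlf (1.13).

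The 15 lowest included genes that starburst cells hold at high levels. Mgarp, a mitochondrial protein, stood at 1396 CPM in control members and 533 in Mettl14-cKO members, log2 -1.39. Calb2 (calretinin), a calcium buffer of starburst cells, stood at 2269 and 916 CPM, log2 -1.31. Pcp4, which binds calmodulin, stood at 5678 and 3004 CPM, log2 -0.92. Each of these was also higher in starburst than in other GABAergic cells of both libraries, and each kept its call in every alternative run on it. Pomc, a peptide hormone precursor, stood at 304 and 142 CPM, log2 -1.10, with UMIs in 26 of 64 and 12 of 89 cells. Thinned to 1500 UMIs per cell, Pomc lost its call (-0.83). Sparc, a secreted matrix protein, stood at 181 and 90.1 CPM, log2 -1.01, and lost its call when thinned (-0.58).

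The rest of the 15 included proteins of synapses and ion transport. Slc12a5 (KCC2), the chloride exporter that makes GABA inhibitory in mature neurons, stood at 154 and 82.4 CPM, log2 -0.90. Synpr, a synaptic vesicle protein, stood at 170.0 and 65.2 CPM, log2 -1.38. Sncb (beta-synuclein) stood at 675 and 353 CPM, and Camk2n1, an inhibitor of CaM kinase II, at 596 and 307 CPM. Rapsn, which clusters nicotinic receptors at the neuromuscular junction, stood at 152 and 76.7 CPM and lost its call without Scrublet-marked barcodes (-0.79). The clock output factor Dbp (log2 -1.29), Ndufc1 (-1.02), Pigp (-0.95), Gnb3 (-0.95) and Praf2 (-0.94) completed the 15. Gnb3, a G protein subunit of cones and ON bipolar cells, lost its call without rod-rich members (-0.85).

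The cholinergic genes did not move together. Slc18a3 stood at 505 CPM in control members (223 UMIs) and at 847 in Mettl14-cKO members (442 UMIs), a ratio of 1.68 (1.42 to 1.98), and its intervals did not overlap. Chat stood at 111 and 99.7 CPM (49 and 52 UMIs), a ratio of 0.898 (0.596 to 1.35). Slc5a7 stood at 204 and 219 CPM, a ratio of 1.07 (0.806 to 1.43). Ache, which breaks acetylcholine down, stood at 36.3 and 36.4 CPM, and Slc10a4 had a ratio of 0.896 (0.633 to 1.27). Of the 5 cholinergic genes measured, 1 was thus called higher and 0 lower, with a median log2 ratio of 0.01. Per Chat UMI there were 4.55 Slc18a3 UMIs (3.33 to 6.33) in control and 8.50 (6.37 to 11.6) in Mettl14-cKO members.

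Since Slc18a3 and Chat helped to choose the members, each marker was also read in barcodes chosen without it, a reading added after seeing the data. With Slc18a3 taken out of the rule, 33 control and 41 Mettl14-cKO cells remained. Slc18a3 stood at 389 CPM (318 to 472) and 969 CPM (848 to 1104) in them, a ratio of 2.49 (1.96 to 3.17). Chat, read in 61 and 87 cells chosen without it, stood at 107 and 97.4 CPM, a ratio of 0.910 (0.598 to 1.39). Slc5a7 had a ratio of 1.06 (0.792 to 1.43). Sox2, a factor kept on in starburst cells, had a ratio of 1.06 (0.849 to 1.32) in cells chosen without it. Megf10, a receptor of mosaic spacing, had a ratio of 0.846 (0.617 to 1.16). The Slc18a3 difference was therefore no smaller in cells that Slc18a3 did not choose, while the intervals of Chat, Slc5a7, Sox2 and Megf10 included 1.

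The listed transcription factors gave no call, though Sox2 and Tfap2b helped to choose the members of both libraries. Of 13 transcription factors measured among 23 listed, 0 were higher and 0 lower, with a median log2 ratio of 0.05 against 0.04 over all genes measured. Isl1 had a ratio of 0.847 (0.761 to 0.943), short of the 1.5-fold asked for. Sox2 stood at 369 and 379.6 CPM, Tfap2b at 537 and 598, and Nhlh2 at 376 and 408. Tfap2a had the largest ratio of the list in either direction, log2 -0.87, on 37 and 24 UMIs. A member's interval had a median half-width of 0.47 on the log2 scale, so smaller differences were not resolved.

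Genes of mosaics, receptors and release gave few calls, where 3.4% of all genes measured were higher and 2.37% lower. Of 15 mosaic and lamination genes measured, 1 was higher and 1 lower, with a median of 0.19. Tenm2, a teneurin adhesion protein, stood at 213 and 326 CPM, log2 0.61, and lost its call under several alternatives, among them removal of Scrublet-marked barcodes (0.55). Amigo2, an adhesion protein that scales starburst arbors, stood at 81.6 and 23.0 CPM (36 and 12 UMIs), log2 -1.83. Of 21 receptors and channels 0 were higher and 1, Slc12a5, was lower, with a median of -0.06. Of 23 transmitter release genes 1 was higher and 0 lower, with a median of -0.19. None of the 4 GABA genes measured was called, with a median of -0.18.

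**Figure D4:**
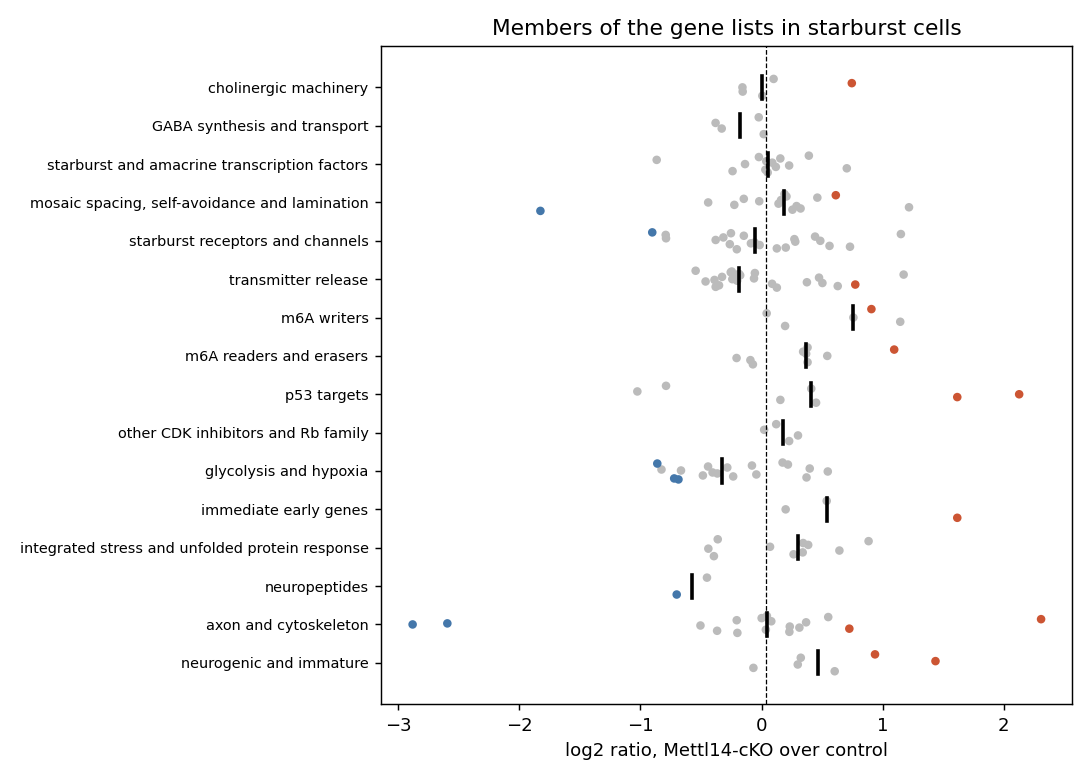
Members of each gene list with at least 30 UMIs, by their log2 ratio of Mettl14-cKO over control in starburst cells; red and blue dots were called higher and lower, black bars are list medians, and the dashed line is the median of all genes measured, 0.04. The transcription factor list has no coloured dot, and the glycolysis list has 3 blue ones.

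Genes of the m6A machinery gave 2 calls, both higher, as were 3.4% of all genes measured. Of 5 writers measured, Zc3h13, a scaffold of the writer complex, was higher at 104 and 196 CPM (log2 0.91), and the median was 0.76. It lost that call without rod-rich members (0.69), without Scrublet-marked barcodes (0.66), without the deepest 5% of cells (0.70) and when thinned (0.25). Of 9 readers and erasers, Ythdf2, which directs methylated RNA to decay, was higher at 43.1 and 92.0 CPM (log2 1.10), and the median was 0.37. Ythdf2 lost its call without Scrublet-marked barcodes (0.80), and also with at least 3 of 5 markers, under median-of-ratios scaling, without the deepest 5% of cells and without its top cell (1.05 to 1.10).

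The p53 target Cdkn1a was sparse in starburst cells. This gene, whose protein arrests the cell cycle, had 1 UMI in control and 13 in Mettl14-cKO members (2.27 and 24.9 CPM), 4 of the 13 in 1 cell, a ratio of 10.996 with an interval of 1.65 to 467. Without rod-rich members 1 and 6 UMIs remained, log2 2.43 in place of 3.46, and 28.6% of Mettl14-cKO rods held the gene (14.1% at 1500 UMIs); the part of rod RNA was not tested. In other GABAergic cells it stood at 76.6 and 145 CPM, and starburst cells were called lower in both libraries. At 1500 UMIs, Cdkn1a was found in 0 of 63 and 1 of 84 members, against 7.85% and 14.4% of other GABAergic cells. Of 7 p53 targets measured, Mdm2, the ubiquitin ligase that restrains p53, and Btg2, an antiproliferative factor, were higher, against 3.4% of all genes measured, and the median was 0.41. Mdm2 had 6 and 31 UMIs (log2 2.13), in 6 and 24 cells. Btg2 had 16 and 58 (log2 1.62) and lost its call without rod-rich members (1.20). Without the deepest 5% of cells, 0 of the 3 p53 targets still measured were called, with a median of 0.26. Of 4 other CDK inhibitors and Rb family genes measured, none was called, with a median of 0.17.

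Of 6 neurogenic and immature genes measured, 2 were called higher and 0 lower, against 3.4% and 2.37% of all genes measured, with a median of 0.46: Sox4 at 292 and 560 CPM (559.8 before rounding; log2 0.94) and Insm1 at 34.0 and 92.0 CPM (log2 1.44). Insm1 lost its call without Scrublet-marked barcodes (1.51) and without the deepest 5% of cells (1.31). Neurog2 was not called, at log2 0.32. Of 17 axon and cytoskeleton genes 2 were higher and 2 lower, with a median of 0.04. Stmn4, a microtubule-destabilising stathmin, stood at 31.7 and 157 CPM (14 and 82 UMIs; log2 2.31) and lay in 9 of 64 and 48 of 89 cells. Map1b, a microtubule-associated protein, stood at 297 and 491 CPM (log2 0.73) and lost its call without rod-rich members (0.55). The lower ones were the neurofilaments Nefl (log2 -2.88) and Nefm (-2.60), whose UMIs lay mostly in the ganglion-marker-rich control cell. Without the top cell of each library they stood at 0.17 and 0.24.

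A few metabolic genes and Npy stood lower. Of 18 glycolysis and hypoxia genes 0 were higher and 3 lower, against 3.4% and 2.37% of all genes measured, with a median of -0.32. Eno1 (enolase) stood at 721 and 437 CPM, log2 -0.72, and Tpi1 (triosephosphate isomerase) at 669 and 368, log2 -0.86. Bnip3, a mitophagy receptor, was the third, at 222 and 138 CPM, and lost its call without rod-rich members (-0.62). The same 3 genes were also called lower in other GABAergic cells. Npy stood at 9694 and 5964 CPM in members, log2 -0.70, and Pnoc was not called, at log2 -0.45. The 10 stress response genes measured gave no call, with a median of 0.30. Of 3 immediate early genes only Btg2, which the p53 list also holds, was called, with a median of 0.54. Without the deepest 5% of cells, 0 of 3 immediate early genes were called. None of the 18 interferon genes reached 30 UMIs.

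Starburst cells and other GABAergic cells come from the same libraries, so the values stand side by side without a test. Of the genes measured in both, 176 were higher in starburst cells and 71 of them (40.3%) were also called higher in other GABAergic cells, where 339 were higher in all, so that the 71 made up 20.9% of those. Over the wider set of 11075 genes measured in other GABAergic cells, 6.99% were higher and 3.4% lower. Of 124 lower in starburst cells, 30 (24.2%) were also lower in the others, or 18.5% of the 162 called there. Pcp4 stood at 1476 and 657 CPM in other GABAergic cells, log2 -1.17, and Mgarp at 529 and 263, log2 -1.01. Of the 15 highest genes of starburst cells, all but Crtac1, Rpgrip1 and Nrl were also called higher in other GABAergic cells. Among them were Islr2 at log2 1.46 and Prr7 at 1.55. Crtac1 stood at 25.4 and 27.1 CPM there, log2 0.09, and Pomc at 10.999 and 13.0, log2 0.24, so their ratios stood near 0 in that class. Sparc went the other way, at 12.03 and 26.2 CPM in other GABAergic cells, log2 1.12. Whether these ratios differ between the classes beyond library variation was not tested.

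**Figure D5:**
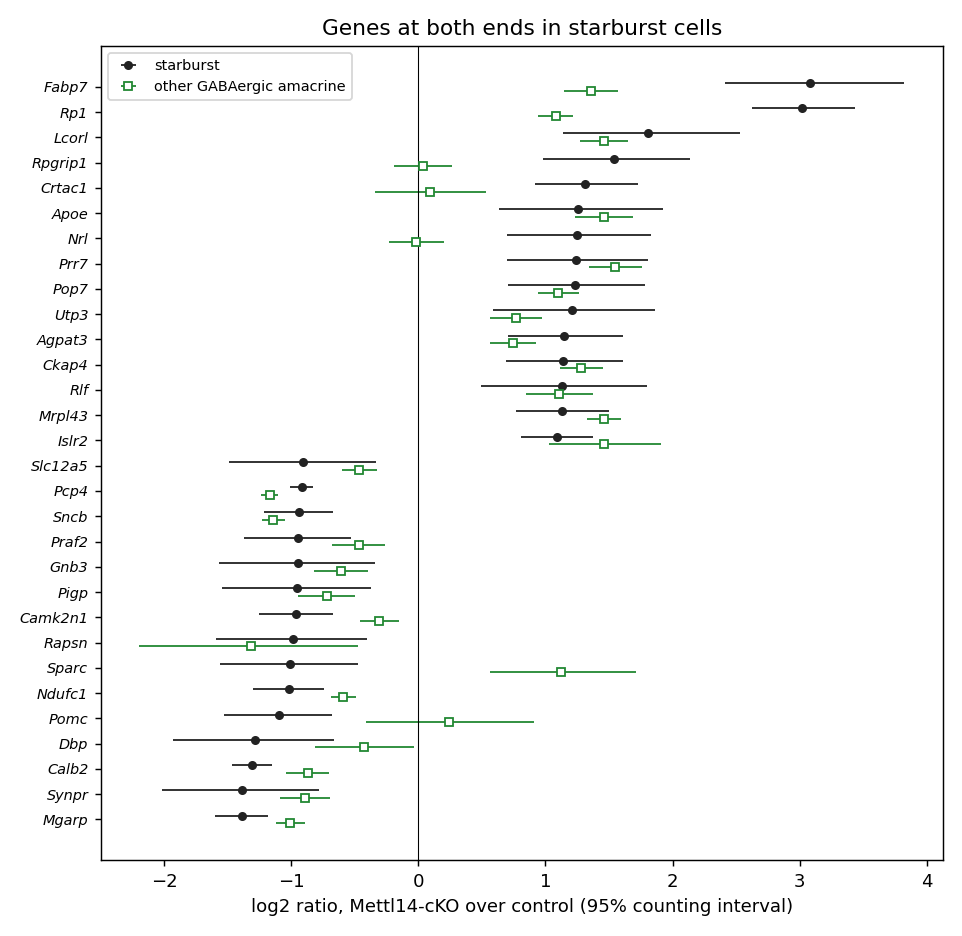
Log2 ratio of Mettl14-cKO over control with its 95% counting interval for the 15 highest and 15 lowest genes of starburst cells, as black circles for starburst and open green squares for other GABAergic amacrine cells. Crtac1, Rpgrip1, Nrl and Pomc stand near 0 in the other GABAergic cells, and Sparc stands on opposite sides of 0. The rest of the 15 highest genes stand above 0 in both classes.

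ON and OFF starburst cells are known to differ in Fezf1, a zinc finger factor of ON cells, and Rnd3, a regulator of the cytoskeleton in OFF cells. Fezf1 was found in 5 of 64 control members, or 7.81% (2.59 to 17.3%), and in 10 of 89 Mettl14-cKO members, or 11.2% (5.52 to 19.7%). At 1500 UMIs it was found in 2 of 63 and 2 of 84 members, against 0 of 522 and 0 of 859 other GABAergic cells. Cells without a UMI include ON cells in which Fezf1 was missed, so detection gives a range and not a type. Rnd3 was rare in cells with Fezf1: 0 of 5 control and 2 of 10 Mettl14-cKO cells with Fezf1 held it, against 35 of 59 and 41 of 79 without. By the limit of 3 counts, 0 of 5 cells with a UMI allows up to 60.0%, and missed detection is not covered. Of the 5265 genes, 41 (0.779%) were higher and 33 (0.627%) lower in cells with Fezf1, the same way in both libraries. These calls asked for 1.5-fold or more in each library, but for intervals apart only in the sum of both. Tenm3, Sema6a and Slit2 were set beside Rnd3 for this split. Tenm3 was called lower, with 0 UMIs in cells with Fezf1 of both libraries. Sema6a was not called, at 144 against 133 CPM in control (log2 0.11) and 84.6 against 206 in Mettl14-cKO (-1.29). Slit2 was not called either, at log2 -0.85 in control and 0.17 in Mettl14-cKO.

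Genes of receptors and signalling were among those that parted with Fezf1. Rapsn stood at 431 CPM in control cells with Fezf1 against 128 without, and at 211 against 46.8 in Mettl14-cKO. Necab2, a calcium-binding protein, stood at 574 against 121 CPM and at 190.3 against 77.3. Rgs9, which speeds G protein shut-off, stood at 86.2 against 41.8 CPM and at 222 against 89.0. Among lower genes, the AMPA receptor subunit Gria1 stood at 28.7 against 128 CPM and at 63.4 against 164. The control cells with Fezf1 held 15 UMIs of Rapsn, 20 of Necab2, 3 of Rgs9 and 1 of Gria1. Ndrg3, March1, Ipmk and Rp1 were also among the higher ones, and Pdzd11, Mapre2, Scd2, Sulf2, Prdx1 and Nsg2 also among the lower ones, with Rnd3. Of the Rp1 UMIs of Mettl14-cKO members, 300 of 556 lay in the 10 cells with Fezf1, which include the cell with 299.

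Rnd3 split the members more evenly, with Zfhx3 and Tenm3 high beside it; this split and the genes read in it were chosen after their values were seen. Rnd3 had a UMI in 35 of 64 control members and in 43 of 89 from Mettl14-cKO. Zfhx3, a homeodomain factor, stood at 238 CPM in control cells with Rnd3 against 32.2 without, and at 248 against 29.5 in Mettl14-cKO. Tenm3, another teneurin, stood at 234 against 12.9 CPM and at 223 against 108. Rapsn ran the other way, at 101 against 245 CPM and at 37.7 against 138, and so did Necab2, at 73.5 against 309 and at 53.4 against 167. Cells with Rnd3 were deeper, with medians of 7900 against 5669 UMIs in control and 6584 against 3688.5 in Mettl14-cKO, and the part of depth in this split was not tested. Slc18a3 stood higher in Mettl14-cKO on both sides of the Rnd3 split. It stood at 483 and 763 CPM in cells with Rnd3, and at 547 and 979 CPM in cells without. In the Fezf1 split it stood higher only in cells without Fezf1, at 499.5 and 909 CPM. In the 5 and 10 cells with Fezf1 it stood at 574 and 571 CPM, on 20 and 54 UMIs.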

How the data were processed

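Dissociated retina of 2 genotypes was profiled, 1 library each, by 3′ droplet sequencing on the 10x platform, per the labels. Each deposited matrix gives raw UMI counts of 32285 genes for its barcodes, without normalization. The authors made these counts with Cell Ranger 6.1.1, per the file headers. Build mm10 is named in the submitters' processing notes. The files hold 13287 control and 15319 Mettl14-cKO barcodes with 55921787 and 59856468 UMIs, and no totals other than genes.

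Barcodes were kept with at least 1000 UMIs, 500 genes and at most 15% mitochondrial UMIs (11361 and 13480). The rule for members was applied to them as stated in the report, and no cells were clustered. Doublets were marked with Scrublet (scanpy 1.11.5, expected rate 0.8% per 1000 barcodes), which marked 6.92% and 12.0% of barcodes and 5 and 12 members. They were kept in the main values and left out in an alternative. Empty droplets were not used here, so free RNA was read only from transcripts in other classes.

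UMIs were summed per library over members and scaled to 1000000 (CPM) with Python 3.11.15, numpy 2.4.6, scipy 1.17.1 and pandas 2.3.3. Levels carry exact Poisson intervals, ratios exact conditional intervals and shares Clopper-Pearson intervals, all at 95%. UMIs from 3′ ends do not depend on transcript length. With 1 library per genotype there is no replicate check, and spread between animals or preparations is not covered. A gene was measured with at least 30 UMIs over both libraries, and called at 1.5-fold or more (2-fold between classes, in both libraries) with Poisson intervals apart. In the Fezf1 split, a call asked for 1.5-fold in each library, with intervals apart only in the sum of both. A count of 0 was set to a floor of 3 counts per library for a log2 value, and no log2 value was given where that floor reversed or hid the direction. The calling step was run on simulated Poisson counts without spread between cells. That run therefore does not cover genes whose UMIs lie in a few cells.

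Named genes were those of the rule and Isl1, Mettl14, the 15 highest and 15 lowest called ratios with at least 100 UMIs and found in at least 10% of the members of 1 library, the 20 largest and 10 smallest class folds with at least 100 UMIs, and the 8 highest and 8 lowest of the Fezf1 split with at least 50 UMIs. In each of 17 gene lists up to 4 members with the largest ratios could be named, with any on which the list's name turns. Genes called in opposite directions in the classes were also named. Mitochondrial, ribosomal, haemoglobin, sex-linked and unnamed gene models were not. The members, lists and rules were chosen with earlier results of these data known. Start regions came from a RefSeq table on GRCm38.p6 and gene positions from GRCm38 annotation, the same build as mm10. Some genes that these rules name are not reported here.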

Additional observations from a re-analysis of the deposited data

Results flagged for a closer look

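Sparc is given a closer look because its 2 classes of cells went opposite ways. Its log2 ratio of Mettl14-cKO over control was -1.01 in starburst cells, on 80 and 47 UMIs, and 1.12 in other GABAergic amacrine cells, on 35 and 115 UMIs. It was the single gene with at least 100 UMIs in both classes that was called in opposite directions. Thinned to 1500 UMIs per cell, the ratio in starburst cells was -0.58 with an interval of -1.65 to 0.47, and its call was lost. The difference was not tested, since each genotype has 1 library.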

How the results depend on the processing

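No paired analysis was possible because each genotype has 1 library. Removal of Scrublet-marked barcodes, at least 3 of 5 markers, at least 2000 UMIs, removal of the deepest 5% of cells, median-of-ratios scaling and 3 alternatives chosen after seeing the data (Slc6a9 or Rlbp1 barcodes kept, rod-rich members left out, each gene without its top cell) left the counts of genes between genotypes within 1.5 times, from 125 to 216 higher and from 93 to 157 lower. The called genes changed more than their counts did. Of the 179 higher and 125 lower genes, from 97 to 160 and from 73 to 125 kept their call. The fewest higher genes, 97, were kept without the deepest 5% of cells. The fewest lower genes, 73, were kept without Scrublet-marked barcodes. Median-of-ratios scaling gave 151 higher and 157 lower, so that 49.0% of called genes were higher and not 58.9%. Thinning to 1500 UMIs per cell gave 21 higher and 32 lower of 1446 genes measured, so that more were lower than higher. Of these, 14 and 20 were among the calls of the main values. A minimum of 100 UMIs gave 95 higher and 85 lower, and a fold of 2 gave 102 higher and 42 lower. Thinning and the minimum measure fewer genes, and the fold asks for more. The part of this in the counts was not tested. The share ratio moved from 1.17 to 2.11 when barcodes were thinned to 1000 UMIs. In the Fezf1 split, thinning left 2 cells with Fezf1 in each library with 6 genes higher and 1 lower, and removal of Scrublet-marked barcodes gave 70 higher, of which 31 were among the 41; the cause was not tested. List medians moved by less than the median half-width of their members' intervals in 142 of 143 readings; the exception was the neurogenic and immature list when thinned, at 1.05 over 3 genes. Thinning gave no value for the other CDK inhibitors. Apoe reversed without Scrublet-marked barcodes (-0.14) and with Slc6a9 or Rlbp1 barcodes kept (-0.19). Of the called named genes and list members with a value in each reading, 12 lost their call and 16 kept it when thinned, 10 lost and 35 kept it without the deepest 5% of cells, and without Scrublet-marked barcodes 7 lost it, 1 reversed and 37 kept it. With 64 and 89 cells, genes under 30 UMIs were not resolved.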
